A study of Rattus norvegicus with 9 samples.

Results

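The 9 genes described here, Cldn5, Pecam1, Flt1, Kdr, Tek, Vwf, Pdgfrb, Rgs5 and Acta2, are markers of the cells that build brain blood vessels. Every probe set whose annotation gave exactly 1 gene symbol, that of a listed gene, was taken, which gave 14 of the 31042 probe sets that are not array controls. The NCBI gene IDs are 65131 for Cldn5, 29583 for Pecam1, 54251 for Flt1, 25589 for Kdr, 89804 for Tek, 116669 for Vwf, 24629 for Pdgfrb, 54294 for Rgs5 and 81633 for Acta2. The 9 are among the 14217 genes with such a probe set. A probe set is a group of short probes on the array that together report 1 transcript. The arrays were made from the hypothalamus of normal female rats at 3 stages around puberty, with 3 arrays per stage and 1 animal per array: juvenile rats aged 26 days (replicates 1, 2 and 3), which the submitters treated as controls, early pubertal rats aged 29 days (replicates 7, 8 and 10) and late pubertal rats aged 31 days (replicates 12, 14 and 20). The labels name no mutation, transgene or drug treatment for any group, and the rats' strain was not given in the sources used here. Age and pubertal stage cannot be told apart, since each stage was sampled at 1 age.

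Brain capillaries are tubes of endothelial cells, sealed to each other by tight junctions that form the blood-brain barrier and wrapped by mural cells: pericytes on capillaries and smooth muscle cells on arterioles. Endothelial cells sense vascular endothelial growth factor (VEGF) through the receptors encoded by Flt1 and Kdr and angiopoietins through the receptor encoded by Tek, and pericytes are recruited by platelet-derived growth factor acting on the receptor encoded by Pdgfrb. In the hypothalamus the capillaries of the median eminence lack a tight barrier, and the releasing hormones that drive puberty pass through them to the pituitary.

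Promoter sequences from RefSeq (build GRCr8) were at hand for 5 of the 9 genes: Acta2, Cldn5, Flt1, Rgs5 and Kdr. The 250 bases upstream of the start are shown 5′ to 3′ for Kdr, Flt1 and Rgs5, because these were the genes with a probe set whose arrays at a pubertal stage all lay below the juvenile ones. Kdr is on the + strand at chr14:32571813-32572062, Flt1 on the + strand at chr12:12333180-12333429 and Rgs5 on the + strand at chr13:84380827-84381076. Capitals mark GGAAG, the core bound by ETS factors, which drive many endothelial genes, and GGGCGG, the GC box bound by Sp factors, each on either strand, so that CTTCC and CCGCCC are their reverse complements.
Kdr: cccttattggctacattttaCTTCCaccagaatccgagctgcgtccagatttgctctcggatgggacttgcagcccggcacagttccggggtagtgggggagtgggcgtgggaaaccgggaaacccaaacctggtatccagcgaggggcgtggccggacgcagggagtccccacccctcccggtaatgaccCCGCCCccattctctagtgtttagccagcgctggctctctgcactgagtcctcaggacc
Flt1: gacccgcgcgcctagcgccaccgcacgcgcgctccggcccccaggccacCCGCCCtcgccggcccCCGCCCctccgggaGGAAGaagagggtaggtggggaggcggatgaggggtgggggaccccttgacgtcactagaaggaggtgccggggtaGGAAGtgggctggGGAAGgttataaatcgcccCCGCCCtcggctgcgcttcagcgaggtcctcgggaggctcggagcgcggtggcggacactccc
Rgs5: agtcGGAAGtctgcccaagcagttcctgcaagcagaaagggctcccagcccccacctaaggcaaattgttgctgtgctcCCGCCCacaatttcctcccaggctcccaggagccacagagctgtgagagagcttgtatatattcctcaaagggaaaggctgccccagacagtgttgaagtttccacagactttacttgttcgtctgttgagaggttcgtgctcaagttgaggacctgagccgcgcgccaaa
The Kdr promoter held 1 ETS core, 230 bases upstream of the start, and 1 GC box, 59 bases upstream. The Flt1 promoter, with 73.2% G and C against 61.6% for Kdr and 54.4% for Rgs5, held 3 ETS cores and 3 GC boxes. The Rgs5 promoter held 1 of each. An ETS core occurred in 4 of the 5 member promoters and in 63.3% of the 33469 promoters of the same length, and a GC box in 4 of 5 and in 30.5%. The hypoxia response core ACGTG, searched on both strands, was in 0 of the 5 and in 16.6% of all promoters. The palindromic estrogen response element was in 0 of the 5 and 0.0239% of all promoters. The CArG box, bound by serum response factor at smooth muscle genes, was searched only in its strict form, CC and GG around 6 bases that are each A or T, which was in 0 of the 5 and in 501 of the 33469 promoters. Forms with a base off that pattern were not searched. No motif in capitals overlapped another. These matches describe the letters in the window and nothing more.

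The deposited values were linear signals, 1 per probe set and array. Their median ranged between 79.8 (early pubertal replicate 10) and 122 (late pubertal replicate 20) over the 9 arrays, so they were brought to a common distribution, and levels are given below as normalized log2 signal. Of the 14 member probe sets, 9 passed the filter on low levels (a mean above 6.30), for 8 genes. The exceptions were all 3 Pdgfrb probe sets, 1 of 3 for Flt1 and 1 of 2 for Kdr. The tissue labelled hypothalamus carried 10 of 12 listed hypothalamic genes above the filter, with the transcription factor genes Otp and Sim1 below it. Of 7 listed pituitary hormone genes 4 were above the filter, with Pomc, Prl and Gh1 below it. All 27 other endothelial genes that could be matched passed. The arrays are of whole tissue, so fewer vessel cells and less RNA per vessel cell cannot be told apart.

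Across the 3 stages no member passed limma's test after Benjamini-Hochberg adjustment over the 18625 tested probe sets, and neither did any other probe set, so that the share called at an adjusted p under 0.05 was 0% in each comparison and in the F test of any stage difference. Without adjustment, p was under 0.05 for 831 probe sets between early pubertal and juvenile rats, 772 between late pubertal and juvenile rats and 971 between late and early pubertal rats. These counts lie near a share of 0.05 of the 18625 tested, which is the share under 0.05 when nothing differs. The member differences were mostly small. The median of the 9 tested member probe sets was −0.07 log2 in early pubertal against juvenile rats, −0.15 in late pubertal against juvenile rats and −0.10 in late against early pubertal rats. The same medians over all tested probe sets were −0.001, −0.001 and 0.0004. Flt1 enters the member medians by both of its tested probe sets. With only the brightest probe set of each gene, the 8 tested members had medians of −0.002, −0.15 and −0.09 in the same order. Over all tested genes, taken the same way, these medians were 0.003, 0.002 and 0.0004.

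**Figure D1:**
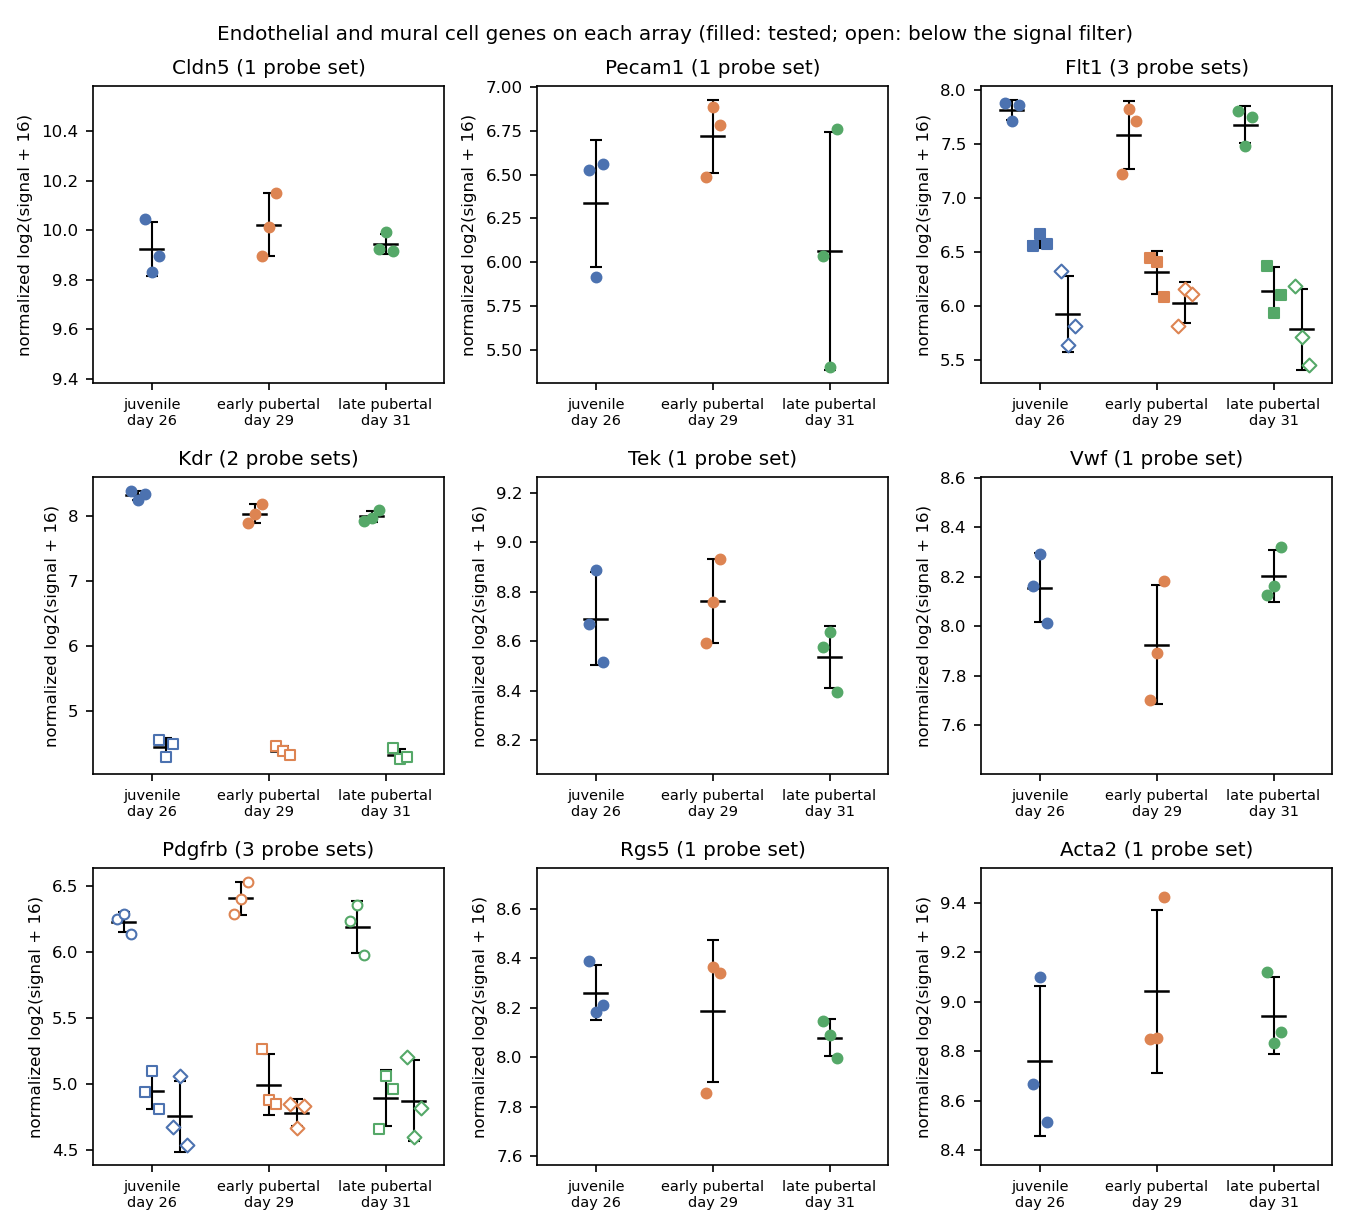
Normalized log2 signal (vertical axis) of every member probe set on each of the 9 arrays, by stage from juvenile to late pubertal (horizontal axis). Points are single arrays, marker shapes are the probe sets of a gene, open markers are probe sets below the filter, and bars are the stage mean and SD (n = 3). The brighter Kdr probe set lies lower on all 6 pubertal arrays (7.89 to 8.18) than on the juvenile ones (8.25 to 8.39), and Pecam1 is the most scattered.

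The VEGF receptor Kdr, the one that carries most of the growth signal in endothelial cells, had the lowest unadjusted p among the members. Its brighter probe set stood at 8.39, 8.25 and 8.34 in juvenile rats, 7.89, 8.04 and 8.18 in early pubertal rats and 7.93, 7.98 and 8.10 in late pubertal rats. All 6 pubertal arrays lay below all 3 juvenile arrays, while early and late pubertal arrays overlapped. Kdr averaged 8.04 ± 0.15 in early pubertal rats and 8.32 ± 0.07 in juvenile rats (SD, n = 3 each), a difference of −0.29 ± 0.12 (SE; 95% interval −0.54 to −0.03). In late pubertal rats it averaged 8.0 ± 0.09, a difference of −0.32 ± 0.12 from juvenile rats (interval −0.57 to −0.07). The mean Kdr level was thus 0.819 times the juvenile one in early pubertal rats and 0.800 times in late pubertal rats. Neither difference passed: limma gave an unadjusted p of 0.0292 and an adjusted p of 0.994 for early pubertal rats, and 0.0168 and 1.0 for late pubertal rats. Late against early pubertal rats differed by −0.04 ± 0.12. The deposited Kdr signals before normalization were 375.1, 303.3 and 304.6 in juvenile rats, 216.4, 215.8 and 223.3 in early pubertal rats and 224.9, 239.7 and 304.3 in late pubertal rats, which overlap in late pubertal and juvenile rats. A second Kdr probe set was dim, between 4.26 and 4.55 on every array, and its differences in a fit without the filter were −0.05 for early pubertal against juvenile rats and −0.12 for late pubertal against juvenile rats.

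Flt1 encodes the other VEGF receptor, which binds the ligand tightly and limits what reaches Kdr. Its brightest probe set stood at 7.89, 7.71 and 7.86 in juvenile rats, 7.23, 7.82 and 7.71 in early pubertal rats and 7.81, 7.48 and 7.75 in late pubertal rats. The stages overlapped, with early pubertal replicate 7 well below the rest. The second tested probe set stood at 6.56, 6.67 and 6.57 in juvenile rats, 6.45, 6.41 and 6.09 in early pubertal rats and 6.37, 5.94 and 6.11 in late pubertal rats. Here all 6 pubertal arrays lay below the juvenile arrays. This probe set was dim, with a mean of 6.35 just above the filter of 6.30. Early pubertal replicate 10 and late pubertal replicates 14 and 20 lay below the filter level. The differences were −0.29 ± 0.19 for early pubertal and −0.46 ± 0.19 for late pubertal rats, and limma gave the late pubertal one an unadjusted p of 0.0322 and an adjusted p of 1.0. The brighter probe set differed by −0.23 ± 0.16 and −0.14 ± 0.16 in the same comparisons, but by −0.054 in early pubertal rats without early pubertal replicate 7 and by −0.041 in late pubertal rats without late pubertal replicate 14. The early pubertal difference of the dimmer probe set was −0.17 without early pubertal replicate 10. The remaining Flt1 probe set, below the filter, differed by 0.11 in early pubertal and −0.14 in late pubertal rats in a fit without the filter. All 3 Flt1 probe sets were thus lower in late pubertal than in juvenile rats, and 2 of 3 in early pubertal rats.

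Tek, the angiopoietin receptor that keeps vessels quiescent, differed by 0.07 ± 0.13 in early pubertal and −0.15 ± 0.13 in late pubertal rats, each against juvenile rats. Its probe set stood at 8.67, 8.89 and 8.52 in juvenile rats, 8.59, 8.76 and 8.93 in early pubertal rats and 8.58, 8.64 and 8.39 in late pubertal rats. The stages overlapped throughout, and late pubertal replicate 20 was the lowest array. The early pubertal difference was −0.017 without juvenile replicate 3 and −0.015 without early pubertal replicate 10. The late pubertal one was −0.057 without juvenile replicate 2.

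Cldn5, the claudin that seals the endothelial tight junction, was the steadiest of the tested members. It stood at 10.04, 9.83 and 9.90 in juvenile rats, 9.90, 10.01 and 10.15 in early pubertal rats and 9.93, 9.99 and 9.92 in late pubertal rats. All stages overlapped. Its difference was 0.10 ± 0.09 in early pubertal rats (interval −0.09 to 0.29) and 0.02 ± 0.09 in late pubertal rats (interval −0.17 to 0.21), each against juvenile rats. The late pubertal difference was −0.025 without juvenile replicate 2, and the early pubertal one 0.033 without early pubertal replicate 10.

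Pecam1, an adhesion protein of endothelial junctions, was the most variable. It stood at 6.53, 5.92 and 6.56 in juvenile rats, 6.49, 6.89 and 6.79 in early pubertal rats and 6.03, 5.40 and 6.76 in late pubertal rats. Its within-stage SD of 0.46 exceeded that of 97.1% of tested probe sets, against 0.10 for Cldn5 and a median of 0.173. Pecam1 was also dim: its mean of 6.37 was just above the filter of 6.30, against a mean of 9.96 for Cldn5. Juvenile replicate 2 and late pubertal replicates 12 and 14 lay below the filter level. Early pubertal arrays overlapped both other stages. The difference of late pubertal from early pubertal rats was −0.65 ± 0.31 (limma, unadjusted p 0.0583, interval −1.34 to 0.03). It was −0.32 without late pubertal replicate 14 and −1.0 without late pubertal replicate 20. Late pubertal replicate 14 was the lowest Pecam1 array, and its summed signal of 3 red blood cell genes was 9944, against 5222 to 6659 on the other 8 arrays; the part of blood content in the Pecam1 value was not tested.

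Vwf encodes von Willebrand factor, a clotting protein stored in endothelial cells. It stood at 8.16, 8.29 and 8.01 in juvenile rats, 7.70, 7.89 and 8.18 in early pubertal rats and 8.12, 8.16 and 8.32 in late pubertal rats. Early pubertal rats held the lowest 2 arrays, and the stages overlapped. The difference was −0.23 ± 0.14 in early pubertal against juvenile rats and 0.28 ± 0.14 in late against early pubertal rats, for which limma's unadjusted p was 0.0715. Without early pubertal replicate 7 these were −0.12 and 0.17.

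Among the mural cell genes, Rgs5, a regulator of G protein signalling that marks brain pericytes, stood at 8.39, 8.18 and 8.21 in juvenile rats, 7.85, 8.36 and 8.34 in early pubertal rats and 8.15, 8.09 and 8.0 in late pubertal rats. All late pubertal arrays lay just below all juvenile arrays, with a difference of −0.18 ± 0.14, while early pubertal replicate 7 lay far below its own stage. The difference in early pubertal rats was −0.07 ± 0.14, and 0.093 without that array. The late pubertal difference was −0.12 without juvenile replicate 1. Acta2, the smooth muscle actin of arterioles, stood at 8.67, 9.10 and 8.52 in juvenile rats, 8.85, 8.85 and 9.42 in early pubertal rats and 9.12, 8.83 and 8.88 in late pubertal rats. Acta2 overlapped at every stage and differed by 0.28 ± 0.18 in early pubertal and 0.18 ± 0.18 in late pubertal rats. The early pubertal value was 0.090 without early pubertal replicate 10 and 0.45 without juvenile replicate 2, and the late pubertal value 0.060 without juvenile replicate 3 and 0.35 without juvenile replicate 2. Pdgfrb was below the filter by all 3 of its probe sets. The brightest stood at 6.26, 6.29 and 6.14 in juvenile rats, 6.29, 6.41 and 6.54 in early pubertal rats and 6.24, 6.36 and 5.98 in late pubertal rats, and the other two between 4.54 and 5.27.

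**Figure D2:**
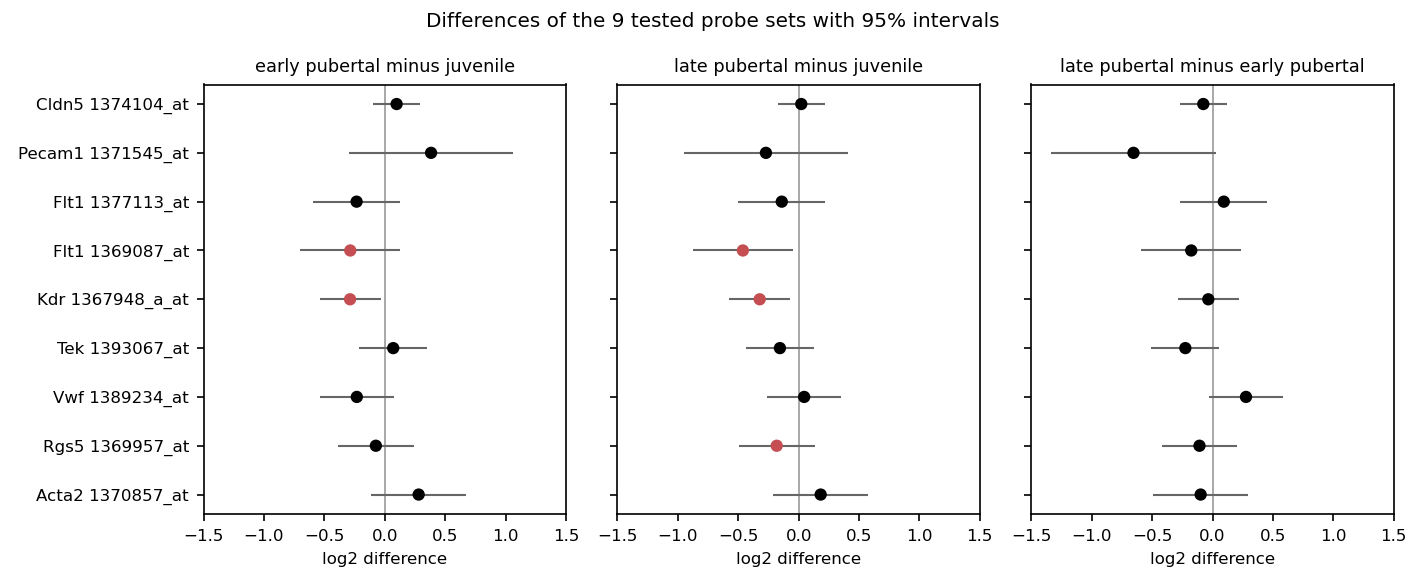
Difference in normalized log2 signal (horizontal axis) for each tested member probe set in each of the 3 comparisons, with 95% intervals from limma; red points have arrays that do not overlap between the stages. Among these, only the Kdr intervals for early and late pubertal against juvenile rats and that of the dimmer Flt1 probe set for late pubertal against juvenile rats leave 0 out, and none passes after adjustment.

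Counted together, 4 of the 9 tested member probe sets were higher and 5 lower in early pubertal than in juvenile rats, 3 higher and 6 lower in late pubertal than in juvenile rats, and 2 higher and 7 lower in late than in early pubertal rats. By brightest probe sets, 4 of the 8 tested genes were higher and 4 lower in early pubertal than in juvenile rats. Late pubertal against juvenile rats gave 3 higher and 5 lower, and late against early pubertal rats 2 higher and 6 lower. Of all tested genes, 51.0%, 50.8% and 50.1% were higher in these comparisons. Probe sets whose arrays did not overlap and lay lower numbered 2 (Kdr and the dimmer Flt1 one) in early pubertal against juvenile rats, where 4.43% of all tested probe sets did so. In late pubertal against juvenile rats they numbered 3 (these and Rgs5), against 5.52%. There were 0 in late against early pubertal rats, against 5.37%. No member was separated in the higher direction, where the shares were 3.86%, 5.90% and 5.97% in the same order of comparisons. Lower with an unadjusted p under 0.05 were 1 member probe set in early pubertal against juvenile rats (Kdr; 2.54% of all), 2 in late pubertal against juvenile rats (Kdr and Flt1; 1.92% of all) and 0 in late against early pubertal rats (2.27% of all). All of these counts rest on the same 3 juvenile arrays in both comparisons with juvenile rats.

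Several members had their highest or lowest level on the same array. Early pubertal replicate 7 was the lowest of the 9 arrays for Flt1, Kdr, Vwf and Rgs5, and early pubertal replicate 10 was the highest for Cldn5, Tek and Acta2. Juvenile replicate 1 was the highest for Flt1, Kdr and Rgs5. Flt1 was taken here by its brightest probe set. Its other tested probe set was lowest on late pubertal replicate 14 (5.94) and highest on juvenile replicate 2 (6.67). Over the 28 pairs of the 8 tested members, 23 correlated positively across the 9 arrays, with a median Pearson r of 0.26 and a range between −0.28 (Kdr and Acta2) and 0.76 (Flt1 and Rgs5). For Flt1 and Rgs5 the exact permutation p was 0.0152 (Spearman rho 0.70, exact p 0.0433), and after adjustment over the 28 pairs it was 0.424 (0.704 for rho). Without the 2 arrays farthest from the Flt1 median, early pubertal 7 and late pubertal 14, r was 0.34, as it was without juvenile 1 and early pubertal 7, the arrays farthest from the Rgs5 median. No pair passed. The deviations from stage means gave 26 positive pairs of 28 and a median r of 0.48. The highest r were 0.83 for Flt1 and Rgs5, 0.80 for Tek and Acta2, and 0.78 for Cldn5 with Kdr and with Rgs5. Exact permutation within stages gave these pairs p between 0.060 and 0.097, each with an adjusted p of 0.389. The smallest p of this test among the 28 pairs was 0.0278, for Pecam1 and Flt1 (r 0.63), also with an adjusted p of 0.389. Only 216 orders exist within stages, so 1 pair alone could not pass after adjustment over 28 pairs, however high its r. For levels, r of Cldn5 with Kdr was 0.12. All pairs share the same arrays and the scaling of each array.

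**Figure D3:**
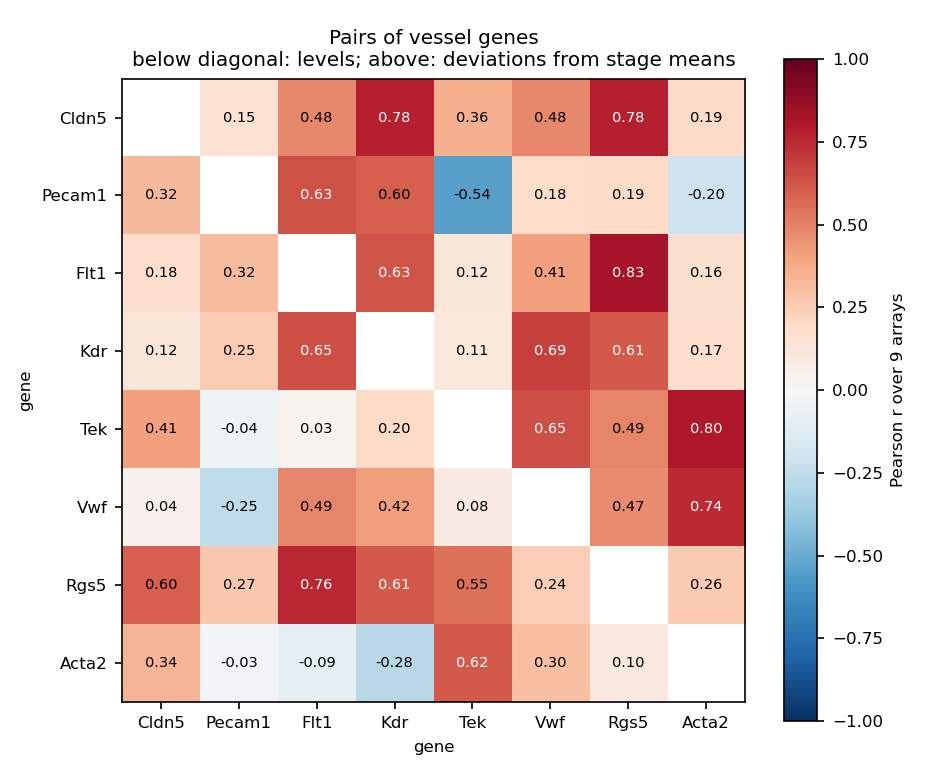
Pearson r (colour and number) for each pair of the 8 tested members over the 9 arrays, below the diagonal for levels and above it for deviations from the stage means. For levels, 23 of 28 pairs are above 0, and Flt1 with Rgs5 has the highest value, 0.76, whose exact adjusted p is 0.424.

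The genes whose level followed each member most closely over the 9 arrays, among 10592 non-member genes, are named here by Pearson r. For Kdr they were Ubqln2 (r 0.95) and Gpr149 (0.93), and for Flt1 Meltf (0.96) and Rab33b (0.95). For Cldn5 they were Id3 (0.94), a target of BMP signalling, and RT1-S3 (0.92). Vwf was followed by Draxin (0.98) and Hectd2 (0.97). Acta2 was followed by Tnfsf13 (0.92) and Eln (0.92), the gene for elastin of artery walls. Rgs5 was followed by Heca (0.95) and Nfya (0.94), Tek by Manbal (0.94) and Zc3h7b (0.90), and Pecam1 by Tomm70 (0.92) and Jup (0.91), a junction protein gene. Spearman's rho of these pairs ranged between 0.58 (Flt1 and Meltf) and 0.97. Each was 1 of the 2 highest of 10592 values, so its size is a description.

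Of 27 other endothelial and blood-brain barrier genes tested, 15 were higher and 12 lower in early pubertal than in juvenile rats (median 0.007), 14 higher and 13 lower in late pubertal than in juvenile rats (median 0.024), and 16 higher and 11 lower in late than in early pubertal rats (median 0.018). None was called. Of these genes, those with the smallest unadjusted p among the ones whose stages did not overlap were as follows. Slc2a1, the glucose transporter of the barrier, was 0.23 ± 0.09 higher in late pubertal than in juvenile rats without passing (limma, unadjusted p 0.032). S1pr1, a sphingolipid receptor that steadies junctions, was −0.19 ± 0.06 in early pubertal and −0.13 ± 0.06 in late pubertal rats, with arrays that did not overlap juvenile ones. Esam, an endothelial adhesion gene, was −0.37 ± 0.12 in late against early pubertal rats (limma, unadjusted p 0.009) and 0.15 ± 0.12 in early pubertal against juvenile rats. Ets1, an ETS factor gene, was −0.14 ± 0.11 in early pubertal against juvenile rats. In late pubertal against juvenile rats, the drug efflux pump gene Abcb1a was 0.22 ± 0.16 (its second tested probe set −0.010), the ETS factor gene Erg 0.19 ± 0.17, the thyroid hormone carrier gene Slco1c1 −0.22 ± 0.12 and the lactate carrier gene Slc16a1 −0.15 ± 0.09. Cd93, an endothelial surface protein gene, was −0.26 ± 0.19 in late against early pubertal rats. The ligands and partners of the member receptors, 19 tested of 25 matched, had medians of −0.02, −0.05 and 0.002 in the comparisons of early pubertal with juvenile, late pubertal with juvenile and late with early pubertal rats. Vegfa, the main ligand of Kdr and Flt1, which was named after its values were seen, differed by 0.03 ± 0.11 in early pubertal and −0.08 ± 0.11 in late pubertal rats, each against juvenile rats. Nrp1, a VEGF co-receptor, was −0.23 ± 0.10 and Jag1, a Notch ligand, −0.48 ± 0.21 in early pubertal against juvenile rats. Jag1 was dim, with early pubertal arrays at 6.11, 5.86 and 6.35, near or below the filter level of 6.30. In late pubertal against juvenile rats Nrp1 was −0.11 ± 0.10, the platelet-derived growth factor gene Pdgfa −0.20 ± 0.09 and Acvrl1, an endothelial receptor of the TGF-beta family, 0.22 ± 0.21. In late against early pubertal rats the hypoxia factor gene Epas1 was 0.13 ± 0.07 and the angiopoietin gene Angpt4 −0.46 ± 0.18. Acvrl1 and Angpt4 were dim too, at 5.93 on juvenile replicate 1 for Acvrl1 and 6.06 on late pubertal replicate 20 for Angpt4.

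Pericyte and smooth muscle genes other than the members had 17 of 20 tested, of which 11 were higher and 6 lower both in early pubertal and in late pubertal rats against juvenile rats, with medians of 0.12 and 0.09. None was called, and the all-gene median was 0.003 in early pubertal and 0.002 in late pubertal rats. Tagln, an actin-binding protein of smooth muscle, stood at 8.96, 9.29 and 8.56 in juvenile rats, 9.03, 8.57 and 9.88 in early pubertal rats and 9.51, 9.76 and 9.57 in late pubertal rats. The late pubertal Tagln arrays lay above the juvenile ones by 0.67 ± 0.27 (limma, unadjusted p 0.028). Mylk, the kinase of smooth muscle myosin, differed by 0.26 ± 0.12 in early pubertal and 0.38 ± 0.12 in late pubertal rats, and a second probe set below the filter by −0.34 in early pubertal and −0.45 in late pubertal rats. Cnn1, a calponin gene, differed by 0.22 ± 0.21 in early pubertal rats and by 0.47 ± 0.21 in late pubertal rats, whose arrays overlapped the juvenile ones. Smtn, a smooth muscle cytoskeleton gene, differed by 0.22 ± 0.17 in late pubertal against juvenile rats and by 0.29 ± 0.17 in late against early pubertal rats, while a second Smtn probe set below the filter differed by −0.30 and −0.095. The pericyte genes went both ways. Anpep, a peptidase of brain pericytes, was 0.43 ± 0.18 in early pubertal against juvenile rats (limma, unadjusted p 0.037). Abcc9, a pericyte potassium channel subunit, was −0.34 ± 0.14 in early pubertal and −0.23 ± 0.14 in late pubertal rats. Higd1b, a pericyte marker, was −0.34 ± 0.14 in early pubertal and −0.25 ± 0.14 in late pubertal rats. Ndufa4l2, another pericyte marker, was −0.23 ± 0.14 in late against early pubertal rats. In early pubertal replicate 10, the summed normalized signal of the pericyte and smooth muscle list was 5232 and that of 10 leptomeningeal fibroblast genes 15920, each the highest of the 9 arrays. The leptomeningeal genes were higher in 10 of 10 in both pubertal stages than in juvenile rats, with medians of 0.18 in early pubertal and 0.29 in late pubertal rats and none called. Neuronal genes were lower in 8 of 9 (median −0.13) and astrocyte genes higher in 6 of 8 (median 0.075) in late pubertal than in juvenile rats. In early pubertal against juvenile rats, neuronal genes were lower in 5 of 9 (median −0.05) and astrocyte genes higher in 6 of 8 (median 0.09). None of them was called. Of all genes, 51.0% were higher in early pubertal and 50.8% in late pubertal than in juvenile rats. The part of these cell types in the vessel gene values was not tested.

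**Figure D4:**
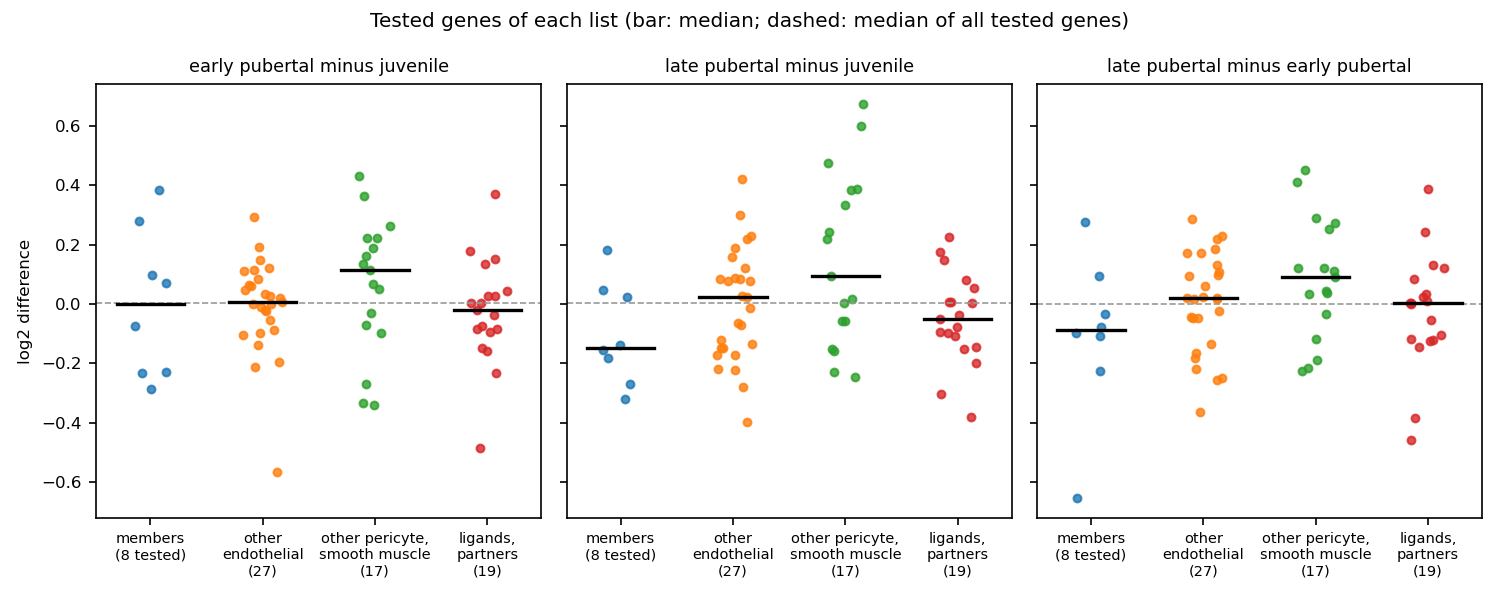
Differences in normalized log2 signal (vertical axis) of the members and the 3 lists of related genes, for each comparison; points are tested genes, bars are their medians and the dashed line is the median of all tested genes. The members and the endothelial, mural and ligand lists centre near 0 in every comparison, with medians between −0.15 and 0.12.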

How the data were processed

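The authors deposited linear signal intensities from 9 one-colour rat arrays, made with MAS5 per the submitters' processing notes; probe sets take their genes from GEO's platform annotation. The table held 31099 probe sets, of which 57 are array controls; 20826 had 1 symbol, 436 several and 9780 none. All 9 member symbols matched current gene records. Signals were set to log2(signal + 16), quantile-normalized between arrays and filtered to a mean above the 40th percentile (18625 tested). limma 3.58.1 in R 4.3.3 fitted 1 mean per stage with an intensity trend (6 residual and 5.80 prior degrees of freedom), with Benjamini-Hochberg adjustment; the added constant understates the log2 differences of dim probe sets. Correlations used exact permutation over all 362880 orders, and those of deviations from stage means over the 216 orders within stages. Arrays correlated between 0.967 and 0.979. The labels name no batch, scan date or pairing. The fit was tested on simulated data. The members and the gene lists were chosen with earlier results of these data known. From each list, up to 3 genes per direction with the smallest unadjusted p among those with non-overlapping stages were named, and for each member the 2 genes most like it. Each brightest probe set stands for its gene. Deposited level, centring, other constants and filters and leaving out arrays were tried. The number of arrays limits the precision.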

Additional observations from a re-analysis of the deposited data

How the results depend on the processing

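No member passed under any alternative. Of 478 member differences recomputed, 456 kept their direction and 22 reversed, 9 of these at the deposited level. Kdr never reversed against juvenile rats: leaving out 1 array gave −0.36 to −0.21 in early pubertal and −0.37 to −0.29 in late pubertal rats. At the deposited level, where the median of all probe sets was −0.24, −0.016 and 0.22, probe sets called numbered 10 (early pubertal against juvenile), 1 (late pubertal against juvenile), 21 (late against early pubertal) and 16 (any stage), and 2 pairs of members passed, Flt1 with Rgs5 and Kdr with Rgs5 (adjusted p 0.0160 each). Leaving out 1 array gave 0 to 1 calls for late pubertal against juvenile rats and for any stage, the 1 without juvenile replicate 2. At the deposited level Cldn5 was −0.16 and Tek −0.19 (early pubertal against juvenile), Cldn5 −0.011 (late pubertal against juvenile), and Kdr 0.20, the dimmer tested Flt1 probe set 0.046, Rgs5 0.13, Acta2 0.13, Cldn5 0.15 and Tek 0.0033 (late against early pubertal). These 9 signs follow the shift of all probe sets: relative to its median the 3 against juvenile rats were 0.080, 0.052 and 0.0045 and the 6 others −0.019, −0.18, −0.094, −0.098, −0.075 and −0.22, each with its original sign. Centring on array medians gave Cldn5 −0.024 (late pubertal against juvenile). Leaving out 1 array gave, for early pubertal against juvenile rats, −0.16 to 0.093 for Rgs5 (positive without early pubertal 7) and −0.017 to 0.17 for Tek (negative without juvenile 3 or early pubertal 10). For late pubertal against juvenile rats it gave −0.62 to 0.061 for Pecam1 (positive without late pubertal 14), −0.025 to 0.082 for Cldn5 (negative without juvenile 2 or late pubertal 14) and −0.025 to 0.11 for Vwf (negative without juvenile 3 or late pubertal 20). For late against early pubertal rats it gave −0.11 to 0.038 for Kdr (positive without early pubertal 10 or late pubertal 12), −0.19 to 0.092 for Acta2 (positive without early pubertal 10) and −0.087 to 0.21 for the brightest Flt1 probe set (negative without early pubertal 7). The cause of the changes on centring or leaving out an array was not tested. No paired analysis was possible because the stages share no replicate numbers.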

Other observations

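Smooth muscle and pericyte genes were set apart after their values were seen, so this is a description. Of 8 tested contractile smooth muscle genes (Acta2, Tagln, Myh11, Myl9, Cnn1, Tpm2, Mylk and Smtn), 8 were higher in late pubertal than in juvenile rats, with a median of 0.39 log2, while 50.8% of all genes were higher. In early pubertal rats 7 of 8 were higher, with a median of 0.22. None passed, and early pubertal replicate 10 stood highest, 0.56 above each gene's mean in the median. These counts rest on the genes chosen and on the brightest probe set of each. Second probe sets of Mylk and Smtn, below the filter, differed by −0.45 and −0.30 in late pubertal against juvenile rats. Des, Notch3 and Mcam, tested genes of the pericyte and smooth muscle list, were placed in neither group. They differed by 0.004, −0.06 and −0.06 in late pubertal and −0.03, −0.10 and 0.16 in early pubertal rats. Of 8 tested pericyte genes, 3 were higher and 5 lower in late pubertal than in juvenile rats, with a median of −0.16, and 4 higher and 4 lower in early pubertal rats, with a median of −0.01. The leptomeningeal sum was also highest on early pubertal replicate 10, and second highest on late pubertal replicate 14, at 14829. Its part was not tested.

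A further 5 probe sets are annotated to both Acta2 and Actc1. All were below the filter and overlapped between stages, and their correlation with the Acta2 probe set over the 9 arrays was between −0.17 and 0.20.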
